A study of Mus musculus with 6 samples.

Results

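The Pramel and Pramef genes are a large mouse family related to Prame, and they were followed here in mouse embryonic stem (ES) cells sorted by a fluorescent reporter called 2C::tomato. Members were all probesets annotated with a symbol that starts with Pramel or Pramef, alone or among several symbols, and 67 of the 35556 probesets on the array met this rule. The annotation used here held 0 symbols that start with Pramef. RefSeq gives Pramef8 and Pramef12 as older names of Pramel12 and Pramel13, and the newer names are used below. The series holds 6 arrays, as 3 numbered tomato-positive and 3 numbered tomato-negative samples, and GEO's titles mark all 6 as wild type. The cells grew on gelatin in ES-KOSR medium. The protocol also describes adding vehicle or 4OHT, the latter to delete Kdm1a, and the titles do not say which of these treatments the 6 samples received. In published work the reporter is driven by the promoter of the endogenous retrovirus MERVL, so a positive cell is defined by that promoter's activity and not by a developmental stage.

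PRAME proteins are built of leucine-rich repeats. The founding human gene, PRAME, is a cancer-testis antigen known to repress signalling by the retinoic acid receptor. The mouse family has expanded into clusters of near-identical copies, and many copies are known from germ cells and early embryos. In the blastocyst and in ES cells Pramel7 acts downstream of LIF and STAT3 and promotes the loss of UHRF1, a maintenance factor of DNA methylation, through a Cullin-2 ubiquitin ligase.

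The copies can be measured one by one only in part. Of the 67 probesets, 14 list 1 symbol and 53 list several, so that the family was read as 14 single genes and 9 groups of symbols that share probesets, 23 entries in all. A group is named here by 1 of its family symbols. The probesets hold 53 distinct profiles, counting values equal to 3 decimals as 1, because 12 profiles are each shared by more than 1 of 26 probesets. Near-identical copies can bind the same probes, so probesets of a group are not independent measurements and cannot be assigned to a single copy. RefSeq lists 48 genes whose symbol starts with Pramel, and 29 of them are named by a probeset here. By RefSeq's gene order 25 lie on chromosome 4, 18 on chromosome 5, 2 on chromosome 2, 2 on chromosome X and 1 on chromosome 12. Of the probesets, 37 belong to groups on chromosome 5, 20 to chromosome 4, 5 to chromosome X and 2 to chromosome 2, and 3 name a group spread over chromosomes 12 and 4.

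Start-site sequences were chosen to show copies named by probesets that were higher in tomato-positive arrays beside copies whose probesets were not. They are RefSeq promoters of the assembly GRCm38.p6, covering 250 bases before to 50 after the annotated start, written 5′ to 3′ along the gene's strand. In the first group of sequences capitals mark GGGTGTGGC, a CACCC-box sequence of the kind bound by KLF factors, and the TATA-box form TATANAA, both searched on both strands. Pramel37 lies on chromosome 5 at chr5:94070496-94070795 (minus strand), and the probesets it shares with other symbols were among those higher in positive arrays. Pramel32 lies at chr4:88634137-88634436 (minus strand) and its probeset was at a similar level in both groups. Pramel6, at chr2:87506315-87506614 (plus strand), was higher in positive arrays and holds no exact box. Its capitals mark the box with the substitution G7A, counted from 1 at the box's first base. Such forms with 1 substitution, shortly before the start and without an exact box, were in 7.9% of family promoters and 3.12% of all promoters. Pramel20, at chr4:143567217-143567516 (plus strand), was higher in 1 positive array above all and holds a TATA form without the box.
Pramel37: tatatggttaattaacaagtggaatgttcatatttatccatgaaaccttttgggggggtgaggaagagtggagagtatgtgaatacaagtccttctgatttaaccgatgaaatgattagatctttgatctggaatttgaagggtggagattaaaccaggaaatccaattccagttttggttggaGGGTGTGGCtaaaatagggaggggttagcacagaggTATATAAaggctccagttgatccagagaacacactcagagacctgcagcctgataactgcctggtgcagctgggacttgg
Pramel32: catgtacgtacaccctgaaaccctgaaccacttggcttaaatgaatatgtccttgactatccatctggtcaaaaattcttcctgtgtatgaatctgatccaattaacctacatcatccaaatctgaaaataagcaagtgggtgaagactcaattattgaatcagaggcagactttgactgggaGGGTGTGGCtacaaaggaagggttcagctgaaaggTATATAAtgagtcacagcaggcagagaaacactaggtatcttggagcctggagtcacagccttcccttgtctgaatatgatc
Pramel6: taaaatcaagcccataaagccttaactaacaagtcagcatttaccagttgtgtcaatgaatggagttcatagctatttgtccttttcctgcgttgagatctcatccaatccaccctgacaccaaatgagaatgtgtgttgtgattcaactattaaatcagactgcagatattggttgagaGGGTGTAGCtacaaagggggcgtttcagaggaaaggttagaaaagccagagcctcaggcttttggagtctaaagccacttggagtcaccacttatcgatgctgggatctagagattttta
Pramel20: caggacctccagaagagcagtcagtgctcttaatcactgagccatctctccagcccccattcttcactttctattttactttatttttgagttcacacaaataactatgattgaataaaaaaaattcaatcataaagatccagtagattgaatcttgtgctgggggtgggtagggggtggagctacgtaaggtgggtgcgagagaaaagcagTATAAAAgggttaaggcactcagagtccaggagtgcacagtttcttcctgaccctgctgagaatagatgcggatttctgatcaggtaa
In Pramel37 the box starts 66 bases and the TATA form 30 bases before the annotated start, and in Pramel32 these distances are 67 and 32. The pair of motifs sits in nearly the same place in both. The probesets naming Pramel37 cannot be assigned to that copy alone, and any part of the motifs in expression was not tested.

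Pramel1 is shown as a start of another composition, from a gene expressed in both sorted groups. Its promoter lies at chr4:143394191-143394490 (plus strand), and capitals mark each CG dinucleotide.
Pramel1: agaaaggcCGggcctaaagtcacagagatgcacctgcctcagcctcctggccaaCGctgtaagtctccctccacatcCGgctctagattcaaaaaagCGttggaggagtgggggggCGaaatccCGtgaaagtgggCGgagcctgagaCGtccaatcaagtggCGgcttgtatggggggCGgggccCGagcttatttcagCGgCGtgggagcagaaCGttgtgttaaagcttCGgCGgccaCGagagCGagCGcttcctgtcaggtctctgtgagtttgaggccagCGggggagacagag
It holds 20 CG dinucleotides, against 1 in Pramel37, 1 in Pramel7 and 3 in Pramel6. The median was 1 over the 38 family promoters found in RefSeq's table and 7 over all 32851 promoters in it. Pramel13, also expressed in both groups, holds 7, and Pramel12 has no entry.

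Values are log2 intensities normalised by the authors, and each difference is the mean of the 3 positive minus the mean of the 3 negative arrays. Unless stated, each SE comes from limma's fit without pairing by replicate number. With that pairing some SEs were smaller and others larger. Array medians lay between 6.95 and 7.04. All 12 ES cell markers examined lay above the median of the negative arrays, and Pou5f1, the core pluripotency factor, was at 12.08 to 12.68 in the positive and 12.22 to 12.69 in the negative arrays. Kdm1a, the deletion target named in the protocol, differed by -0.12 (SE 0.12). Nothing in the labels states that same-group samples came from separate cultures, so the p-values measure the spread between these arrays. In sorted populations a higher value can come from more expressing cells or from more RNA in each, and these cannot be told apart.

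No probeset of the family, and none on the array, passed limma's moderated test at a Benjamini-Hochberg adjusted p below 0.05. That is 0 of 67 members beside 0 of 35556 probesets (0% called), with a smallest adjusted p of 0.875. The same test at an unadjusted p below 0.05 gave 49 members higher and 0 lower, beside 1175 probesets higher (3.3% of the array) and 771 lower (2.17%). Only 3 of the 49 were among the 14 probesets that list 1 symbol, and the rest are shared readings that are not independent. With the replicate number as a block 44 members were higher at that level, beside 5.64% of the array. The differences below are therefore measured values that were not separated from the spread between arrays once all probesets were counted.

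Within that limit the family stood high among the array's differences. At least 2-fold higher means in positive arrays were found for 46 of the 67 member probesets, or 33 profiles, where 405 of all probesets (1.14%) reached that size. At least 8-fold was reached by 35 members, beside 117 probesets (0.329%). Every positive array exceeded every negative array for 52 members, beside 1941 probesets (5.46%). The median difference was 3.06 over the members and -0.03 over all probesets, and 32 of the 100 probesets with the largest differences were family members. Of those 100, 74 list several symbols or none, so repeated and ambiguous probesets were common there. Counted by entry, whether a single gene or a group, 10 of the 23 reached 2-fold, and within each of them all probesets did. Among the 14 single-gene probesets, which are not shared with other symbols, 5 reached 2-fold, 6 were without overlap and the median was 0.40.

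**Figure D1:**
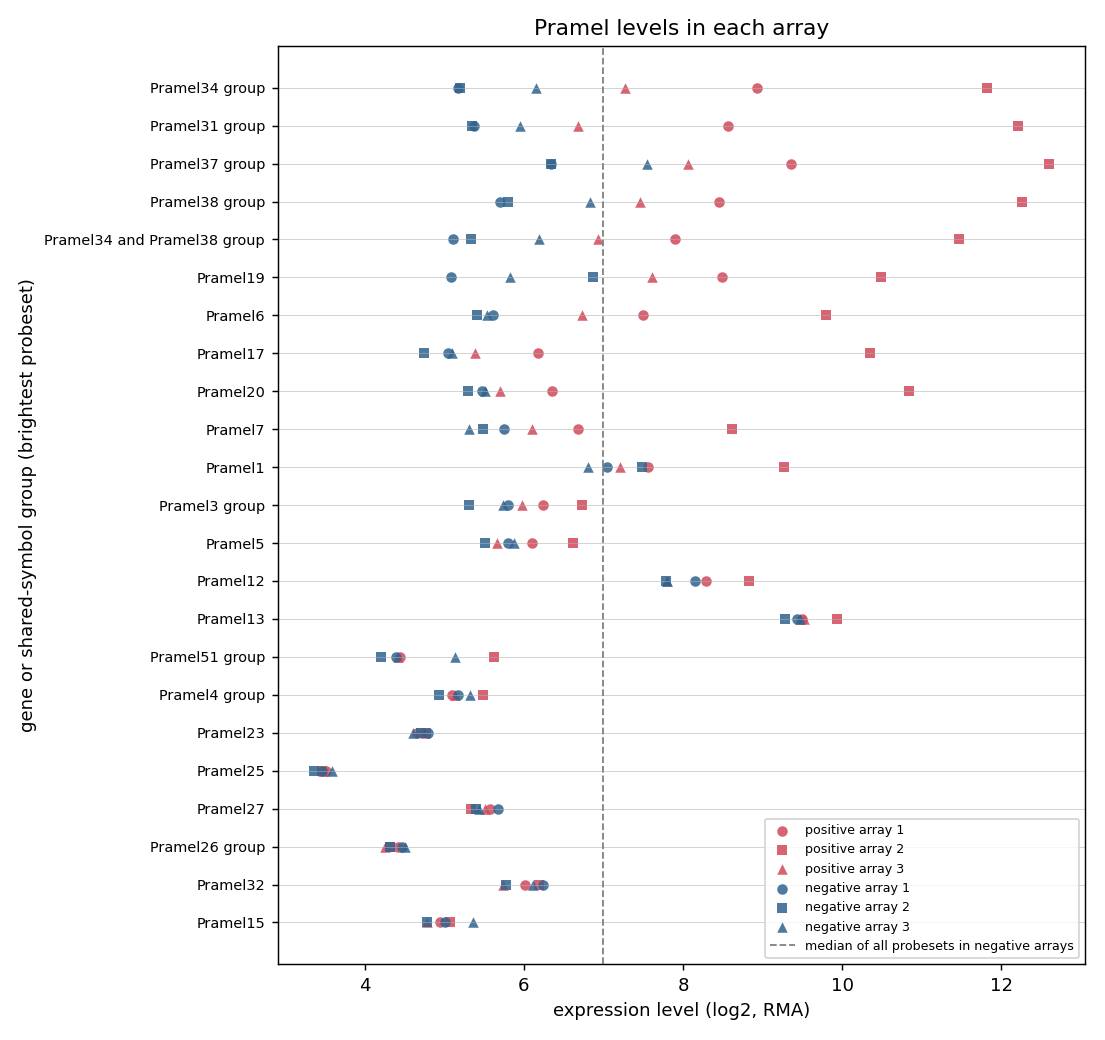
Log2 intensity of each of the 23 family entries, brightest probeset of each, in the 6 arrays (points; tomato-positive and tomato-negative). The copies with the largest separation sit near or below the array median in the negative arrays, while Pramel12 and Pramel13 sit above it in all 6.

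Every probeset naming copies on chromosome 5 was separated between positive and negative arrays. All 37 were at least 2-fold higher, with no overlap between the groups, and 31 were at least 8-fold higher. These probesets hold 26 profiles and name only part of the 18 family genes there, so they do not count separate copies. Their median level was 8.43, 12.16 and 7.32 in positive arrays 1, 2 and 3 and 5.47, 5.77 and 6.65 in the negative ones. Positive array 2 was the highest for all 37, and negative array 3 was the highest of the negative arrays for all 37. The median difference between same-numbered samples was 2.84 for number 1, 6.39 for number 2 and 0.64 for number 3.

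The brightest probeset of the Pramel34 group, which lists Pramel34, Pramel47, Gm6367 and AA792892, read 8.93, 11.82 and 7.27 in the positive arrays and 5.17, 5.20 and 6.16 in the negative arrays. The lowest positive array thus lay 1.11 above the highest negative one, and both belong to number 3. Its means were 9.34 ± 2.30 and 5.51 ± 0.56 (SD, n = 3 each), a difference of 3.83 (SE 1.08) or 14.2-fold (limma adjusted p = 0.875). Without positive array 2 the difference was 2.59. The group's 7 probesets hold 6 profiles, and their differences ran from 2.37 to 3.83.

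The Pramel37 group lists Pramel37, Pramel39, Pramel50 and BC080696 on 11 probesets. Its brightest probeset read 9.36, 12.59 and 8.06 in the positive and 6.35, 6.34 and 7.55 in the negative arrays. The difference was 3.26 (SE 1.11), or 9.59-fold, and 1.97 without positive array 2. Its negative level was the brightest among the copies at least 2-fold higher, at 6.74 ± 0.70 (SD, n = 3). Across the 11 probesets the differences lay between 3.19 and 3.49.

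The Pramel38 group, with Pramel38, Pramel42, Pramel48 and 4 other symbols, has 16 probesets. Its brightest read 8.45, 12.26 and 7.47 in the positive and 5.70, 5.80 and 6.83 in the negative arrays. That is a difference of 3.28 (SE 1.19), and over the 16 probesets the differences ran from 2.23 to 3.45. A further 3 probesets list symbols of both the Pramel34 and the Pramel38 group, and their differences were 3.13 to 3.23.

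Some promoters of the chromosome 5 copies are near copies of each other. Those of Pramel37 and Pramel50 are identical over the 300 bases, and Pramel39 shares 98.3% of them with Pramel37. The 12 promoters from chromosome 5 form 66 pairs, of which 17 share at least 90% of their bases, and the median pair shares 53.85%. Of the 300 pairs among the 25 family and Oog promoters from chromosome 4, 3 reached 90%, with a median of 52.85%. Unrelated promoters were not aligned for comparison, so these medians do not show that a typical pair shares sequence. GGGTGTGGC was found in 12 of the 38 family promoters (31.6%), beside 443 of all 32851 (1.35%). Those 12 are Pramel37, Pramel39, Pramel43, Pramel46, Pramel49 and Pramel50 on chromosome 5, and Pramel23, Pramel25, Pramel26, Pramel27, Pramel29 and Pramel32 on chromosome 4. TATANAA was found in 18 of the 38 (47.4%) and in 11.35% of all promoters. The letters TGCACAC (a Zscan4-type motif) and TTCNNNGAA (STAT-type) were in 0 of the 38, beside 4.4% and 8.3% of all promoters. The box was chosen after the family's promoters had been read, so its share there is a description of that choice. Each match is a description of letters, no match says nothing about the factor, and near-copies count several times.

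On chromosome 4 the copies were mixed. Of 20 probesets, 7 reached a 2-fold higher mean and for 8 the groups did not overlap, and the median difference was 0.32. The 7 belong to Pramel17, Pramel19, Pramel20 and the Pramel31 group. That group lists Pramel31, Pramel16, Pramel20, Gm13057, Gm13040 and Gm13043 on 4 probesets with 2 profiles. Its brightest probeset read 8.56, 12.21 and 6.68 in the positive and 5.37, 5.34 and 5.95 in the negative arrays, a difference of 3.60 (SE 1.29). The same difference was 6.87 between the samples numbered 2 and 0.74 between those numbered 3.

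Pramel19, which has a probeset of its own, was at least 2-fold higher in each of the 3 pairs. It read 8.49, 10.49 and 7.61 in the positive and 5.08, 6.87 and 5.82 in the negative arrays. All 3 positive arrays were above all 3 negative ones. The difference was 2.94 (SE 0.79), or 7.66-fold, with an unadjusted p of 0.00879 and an adjusted p of 0.875 by limma. Same-numbered samples differed by 3.41, 3.62 and 1.78, and without positive array 2 the mean difference was 2.12.

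Pramel17 and Pramel20 rested far more on 1 array. Pramel17 read 6.18, 10.35 and 5.39 in the positive and 5.04, 4.74 and 5.10 in the negative arrays. Its difference of 2.35 (SE 1.22) was 0.82 without positive array 2. For Pramel20 the positive arrays read 6.36, 10.84 and 5.70 and the negative arrays 5.48, 5.30 and 5.51. The groups did not overlap, but positive array 3 lay 0.19 above its same-numbered partner, and the difference of 2.20 (SE 1.28) was 0.60 without positive array 2. In RefSeq's gene order Pramel1, Pramel12 and Pramel20 follow one another among the family genes of chromosome 4, and the negative means of the first 2 lay above the median of all probesets.

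Pramel6 and Pramel7 are neighbours on chromosome 2 with no annotated gene between them, on opposite strands. Pramel6, like Pramel7, is linked to LIF and STAT3 signalling in naive ES cells. Pramel6 read 7.50, 9.80 and 6.73 in the positive and 5.61, 5.41 and 5.54 in the negative arrays. The negative arrays lay close together and all positive arrays were higher. The difference was 2.49 (SE 0.73), or 5.62-fold, and 1.60 without positive array 2. Pramel7 read 6.67, 8.62 and 6.10 in the positive and 5.75, 5.49 and 5.32 in the negative arrays. Its difference was 1.61 (SE 0.62), or 3.06-fold, and 0.87 without positive array 2, so that it was under 2-fold there. Pramel7 had the smallest difference of the entries past 2-fold, and the next entry below that size was Pramel1 at 0.90. Over the 6 arrays the levels of Pramel6 and Pramel7 had r = 0.987, as a description of arrays that share a normalisation.

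**Figure D2:**
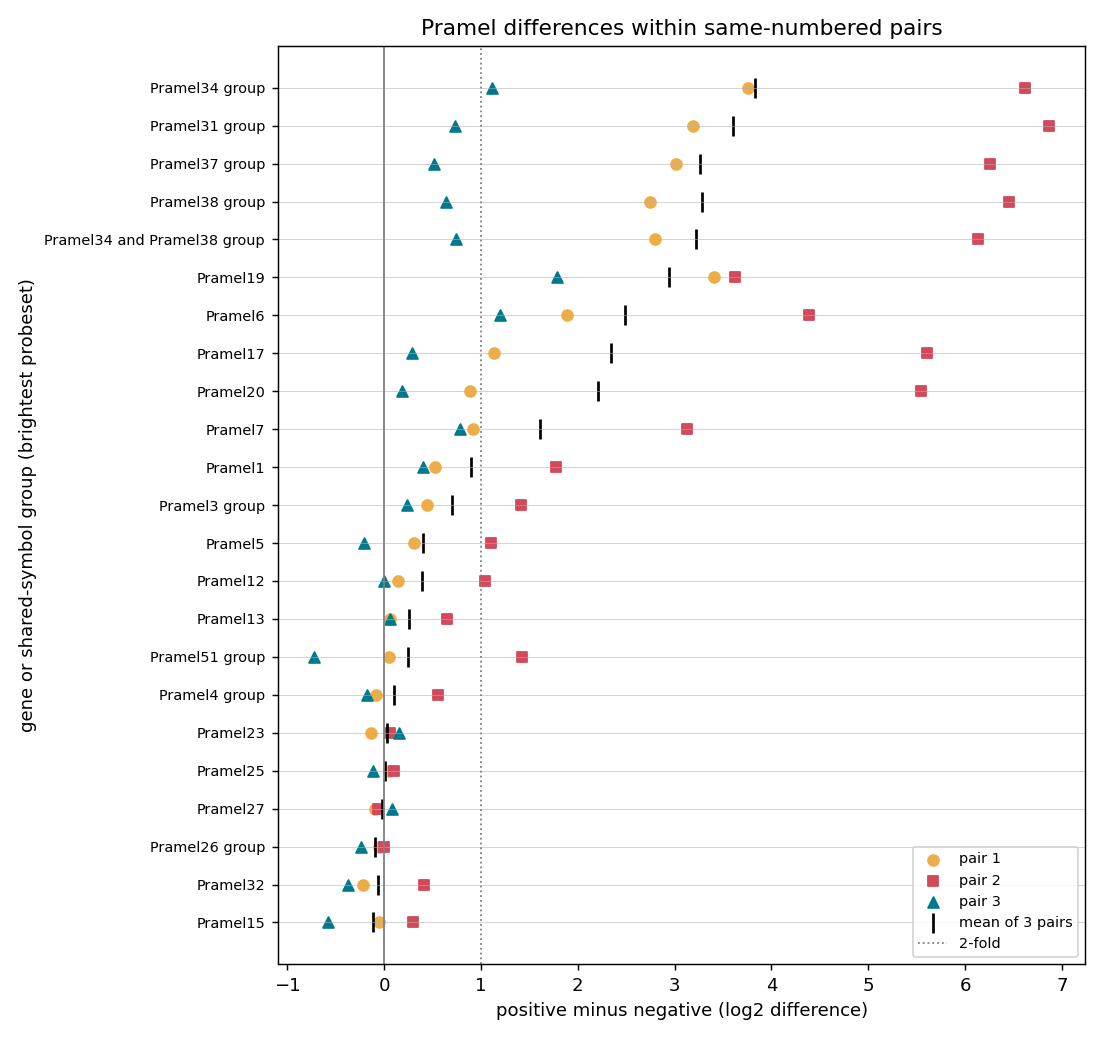
Difference in log2 intensity between the positive and negative sample of the same number, for the brightest probeset of each of the 23 entries. Samples numbered 2 give the largest difference for the copies past 2-fold. Pramel19, Pramel6 and the brightest probeset of the Pramel34 group stay above 1 in all 3 pairs.

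The order of the arrays was shared across the copies. All 46 probesets at least 2-fold higher had positive array 2 highest, then 1, then 3, while 268 of the 405 probesets of that size on the array (66.2%) had this order. Between same-numbered samples, 44 members were at least 2-fold higher for number 1 (2.03% of all probesets), 56 for number 2 (2.38%) and 4 for number 3 (2.01%). The 4 were Pramel19, Pramel6 and the 2 identical probesets of the Pramel34 group, and they were also the members past 2-fold in every pair, beside 61 probesets (0.172%). Negative array 3 was the highest negative array for 54 of the 67 members and for 28.9% of all probesets. Without positive array 2, 43 members were still at least 2-fold higher, beside 515 probesets (1.45%), and Pramel17, Pramel20 and Pramel7 were not. Without positive array 3 the count was 50, beside 1.37% of all probesets.

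**Figure D3:**
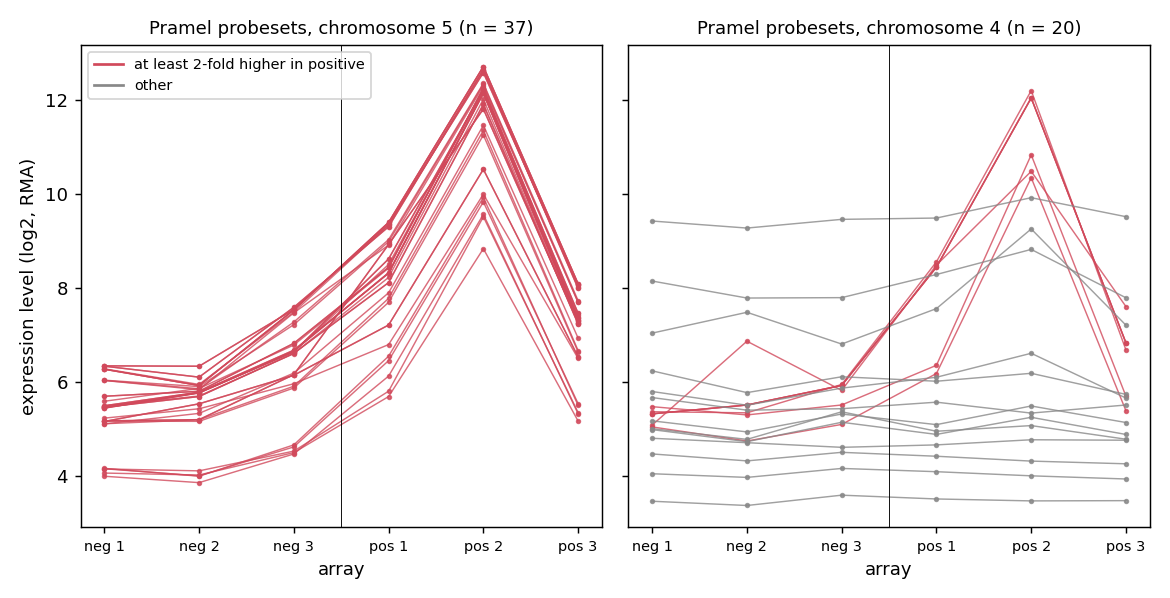
Log2 intensity of the member probesets on chromosome 5 (n = 37) and on chromosome 4 (n = 20) in the 6 arrays. Each line joins the 6 values of 1 probeset. Members on other chromosomes are not drawn. The chromosome 5 probesets move together, with positive array 2 at the top, while the chromosome 4 probesets divide into separated and flat ones.

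Copies expressed in ES cells were set apart from silent ones by their mean in the negative arrays, against the median of that mean over all probesets, 6.99. A probeset's level depends on its probes, so the split describes signals on this array, and silent means only a mean below this boundary. Above their own array's median lay 3 members in negative arrays 1 and 2 each, but 13 in negative array 3. The 13 included the Pramel37 group (7.22 to 7.59) but not Pramel1 (6.81). The negative arrays set the class and also enter the difference, so nothing was tested between the classes. The closest values to the boundary were 7.11 for Pramel1 above it and 6.74 in the Pramel37 group below it. Above it lay 3 entries, Pramel1, Pramel12 and Pramel13, with a median difference of 0.39 and a range of 0.26 to 0.90. None of the 3 was at least 2-fold higher, beside 80 of the 17778 probesets above the boundary (0.45%). Below it lay 64 probesets with a median difference of 3.15 and a range of -0.12 to 3.83. Of these 46 were at least 2-fold higher, beside 325 of 17778 probesets below the boundary (1.83%). Splitting by the mean over all 6 arrays moved 36 probesets into the expressed class and gave it a median of 3.29. That mean includes the positive arrays, so probesets high there enter the class through those same values. This median therefore follows from the split and says nothing about copies expressed in negative cells.

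Pramel13, the former Pramef12, is known in mouse for the maintenance of spermatogonial stem cells, and it was the brightest member in negative cells. It read 9.49, 9.93 and 9.52 in the positive and 9.43, 9.28 and 9.47 in the negative arrays. All positive arrays were above all negative ones by small margins, and the difference was 0.26 (SE 0.15). Pramel12 read 8.29, 8.83 and 7.80 in the positive and 8.15, 7.79 and 7.80 in the negative arrays, and the groups overlapped. Its difference was 0.39 (SE 0.27). Pramel1, known from testis germ cells, read 7.57, 9.26 and 7.21 in the positive and 7.04, 7.49 and 6.81 in the negative arrays. The groups overlapped there as well, and its difference of 0.90 (SE 0.53) was 0.28 without positive array 2. Over all settings run the difference of Pramel1 lay between 0.28 and 1.30, so it passed 2-fold in some of them.

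Of the 64 silent probesets, 18 in 10 entries were under 2-fold, with differences from -0.12 to 0.82, and the highest value of any of them in any array was 6.73. The Pramel3 group on chromosome X, which lists Pramel3 with Gm15023, Gm7903, AV320801 and Gm5128, gave a small but ordered difference. Its brightest probeset read 6.24, 6.73 and 5.98 in the positive and 5.80, 5.31 and 5.74 in the negative arrays. All 5 probesets of the group were without overlap, beside 5.46% of all probesets, and their differences lay between 0.64 and 0.82. They hold 4 profiles of the same shared symbols and are not independent readings. Pramel3 itself is a testis-expressed gene in mouse.

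The other 13 silent probesets, in 9 entries, read 3.37 to 6.61 in all arrays with differences of -0.12 to 0.40, and the groups overlapped for each. Pramel5 had the largest of these differences, 0.40 (SE 0.25), from 6.10, 6.61 and 5.66 in the positive and 5.80, 5.51 and 5.87 in the negative arrays. Of the 2 probesets naming Pramel4, which also list Pramel5 and Gm13102, the brighter gave 5.09, 5.49 and 5.14 against 5.17, 4.94 and 5.32. The Pramel51 group, which includes Pramel25, Pramel29 and the oogenesin Oog1, differed by 0.25 (SE 0.40). Pramel15, reported as a zygotic factor that acts on the methyltransferase DNMT1, differed by -0.12 and Pramel32 by -0.06. Pramel23, Pramel25, Pramel27 and the 2 probesets shared by Oog2 and Pramel26 lay between -0.10 and 0.02. Pramel25 was the dimmest, at 3.37 to 3.59. No detection call was used here, so a dim probeset does not show that a gene is off. Among relatives outside the rule, Prame itself differed by 0.34 (SE 0.14), and the oogenesins Oog3 and Oog4 differed by -0.01 and -0.06.

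**Figure D4:**
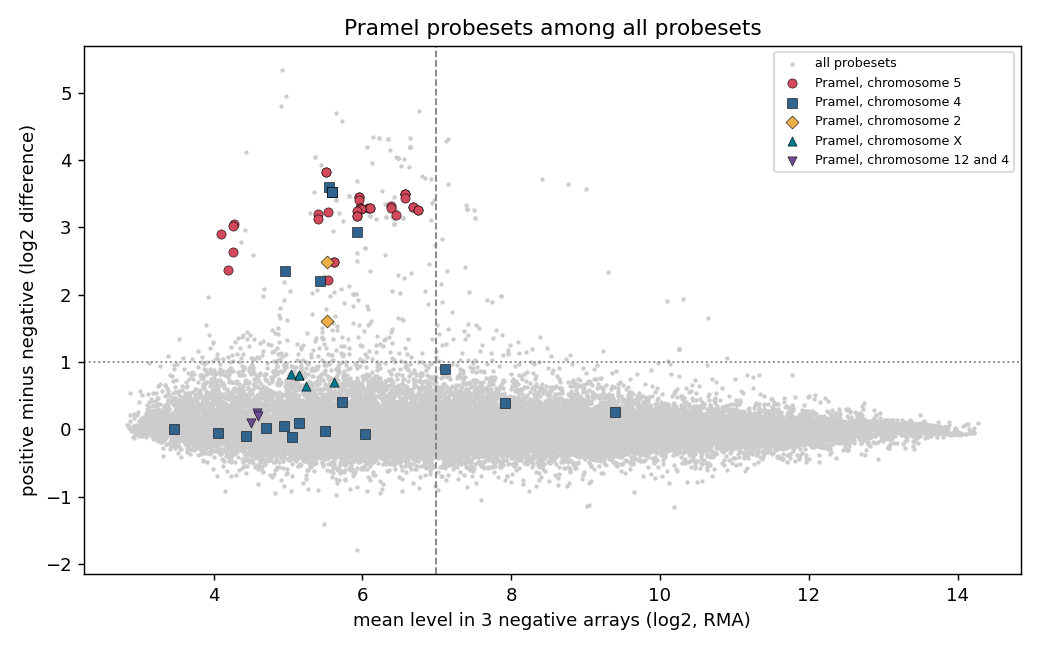
Difference in log2 intensity (positive minus negative) against the mean of the negative arrays for all probesets (grey) and family members (coloured). The dashed line is the median of the negative means and the dotted line marks 2-fold; all members past 2-fold lie left of the dashed line.

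Partners and pathways of the family were read from lists of genes. A listed gene counts as measured where a probeset lists its symbol alone. The Cullin-2 and Uhrf1 list held 19 symbols, in which Tceb2 and Tceb1 are older names of Elob and Eloc, and the other 17 were all measured. Of these 17 genes 0 passed the test in either direction, with 8 higher, 9 lower and a median difference of -0.02. Uhrf1, the protein target of Pramel7, read 11.60, 11.61 and 11.61 in the positive and 11.60, 11.65 and 11.54 in the negative arrays. That is a difference of 0.01 (SE 0.09) in its RNA, and protein was not measured. Klhdc2, a Cullin-2 substrate receptor, differed by -0.30 (SE 0.22).

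For LIF and STAT3 signalling all 16 listed genes were measured, and 0 passed the test, with 5 higher, 11 lower and a median of -0.14. Stat3 itself differed by -0.13 (SE 0.17). Its targets Socs3, a feedback inhibitor, and Gbx2, a naive-state transcription factor, differed by -0.44 (SE 0.17) and -0.52 (SE 0.23), and both were lower in all 3 pairs. Myc differed by -0.43 (SE 0.70), which was 0.33 without positive array 2. Of the retinoic acid list 14 of 16 genes were measured and 0 passed, with 5 higher and 9 lower. Rara, the receptor, differed by -0.18 (SE 0.20), and its partner Rxra by 0.52 (SE 0.50), or -0.07 without positive array 2.

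Other genes known from the early embryo were read beside the Pramel copies. Of 26 such listed symbols outside the family, some of them older names, 14 had a probeset that lists the symbol alone. Of these 14, 13 were at least 2-fold higher with no overlap, though 0 passed the test. This list was drawn up with results of these arrays known and is not independent evidence of direction. Zfp352, a zinc-finger gene of early embryos, read 9.06, 11.76 and 8.01 in the positive and 5.998, 5.91 and 5.87 in the negative arrays, a difference of 3.68 (SE 0.89). The difference of Gm5662 was 5.34 and that of Tdpoz3 was 4.80. Over the 1144 genes with a single symbol and an SD of at least 0.5, the profiles most like the Pramel34 group's brightest probeset were Tdpoz2 (r = 0.998), Spopfm2 (r = 0.997), Gm7982 and Gm2027 (each r = 0.995) and Tmem92 (r = 0.994). These correlations run over 6 arrays that share their normalisation and are descriptions. Within the family, the 45 pairs of the 10 entries past 2-fold had r between 0.847 and 0.9996. These entries were chosen for being higher in the same positive arrays, and some share symbols. High values therefore follow in part from that choice and say nothing further about the copies.

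Markers of other cell types that these cultures could hold were read beside the family. Of the fibroblast list 11 of 12 genes were measured, 3 higher and 8 lower, and their mean was 6.89, 7.67 and 6.73 in the positive and 7.15, 7.76 and 7.24 in the negative arrays. The mean was highest in the samples numbered 2 in both groups, where Acta2, smooth-muscle actin, had the list's highest levels (11.21 and 11.81). The list's largest differences were those of Acta2, -1.16 (SE 1.10), and Tagln, -1.13 (SE 1.11), both lower in all 3 pairs. With the replicate number as a block these SEs were 0.35 and 0.32. Thy1 went the other way, at 0.55 (SE 0.21), and was higher in all 3 pairs. The genes were not uniform. Positive array 2 was the highest positive array for 9 of the 11, and negative array 2 was the highest negative array for 6 and the lowest for 4. Col3a1, a fibrillar collagen, was lowest in number 2 of both groups, at 6.81 and 7.04. Acta2 and Col3a1 were picked after their values were seen. Positive array 2 was also the highest positive array for all 46 Pramel probesets past 2-fold. Of the negative arrays, number 3 was the highest for 54 of the 67 members, and number 2 was the highest for Pramel19 and Pramel1. The part of fibroblasts in the result was not tested. Of the endoderm list, 12 of 12 were measured, 3 higher and 9 lower, with means of 7.88 to 8.22 in the positive and 8.20 to 8.39 in the negative arrays. The oocyte list was at 5.91 to 6.12 in the positive and 5.79 to 6.12 in the negative arrays, and 1 of its 9 measured genes, Zp3, lay above the median of the negative arrays.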

How the data were processed

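RNA from sorted cells was labelled with a whole-transcript sense method and hybridised to Affymetrix arrays, per the labels' protocols. The deposited values are log2 intensities that the authors made by RMA in Affymetrix Expression Console, per the submitters' processing notes. RMA corrects background, normalises between arrays by quantiles and summarises probes, so a shift common to all probesets would not be seen. The sources used here do not give software versions, a probeset filter or a genome build. Depth has no equivalent on arrays: 6 arrays limit the precision.

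All 35556 probesets were fitted without a filter in R 4.3.3 with limma 3.58.1 (a linear model of positive against negative, moderated by eBayes, with Benjamini-Hochberg adjustment over all probesets), after a test of the code on simulated data. Same-numbered samples deviated together (r = 0.410, 0.389 and 0.180), so the numbers were taken to pair the samples, and the replicate number was fitted as a block in an alternative. Of the probesets, 21789 list 1 symbol in GEO's platform annotation, 1621 several, and 12146 are unlisted. RefSeq tables gave current names, gene order and promoters, and Biopython 1.88 aligned the promoters. The CACCC-box and TATA letters were picked after the family's promoters had been read. A Dux-type motif was also searched in an earlier pass, was found in none of the family promoters and is not reported further. All members were named. Of each gene list, the gene at the head of the list, whatever its difference, and up to 3 with the largest absolute difference were named, and for the member with the largest difference, the 5 most alike single-symbol genes. Prame, Oog3 and Oog4 were chosen by symbol. A planned search for relatives by protein similarity was not run, since no protein table was used here. The members, lists and classes were chosen with earlier results of these data known. Alternatives were the replicate block, median centring, a second quantile normalisation, array weights, a filter on dim probesets, 1 probeset a gene, a trended variance, other class boundaries, and leaving out arrays.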

Additional observations from a re-analysis of the deposited data

How the results depend on the processing

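No member or other probeset passed the adjusted test under any alternative run, including the replicate block, where the smallest adjusted p was 0.489. The block changed no call. The count of members at least 2-fold higher was 46, and 43 to 50 with each array left out; the count without overlap was 52, and 52 to 55. With 1 probeset a gene they were 5 and 6, since 14 member probesets list 1 symbol. The medians were 0.13 to 0.65 in expressed and 1.76 to 4.09 in silent copies with each array left out. They were 3.29 and 0.80 when classes were set by the mean over all 6 arrays. Those classes use the positive arrays, so these 2 medians follow from the split. Of 23 entries 16 never changed sign, and the other 7 did, with differences between -0.35 and 0.53 in every setting run. With each array left out Pramel15 ran from -0.25 to 0.042, Pramel23 from -0.024 to 0.072, Pramel25 from -0.042 to 0.068, Pramel27 from -0.077 to 0.057, Pramel32 from -0.20 to 0.060, the Pramel4 group from -0.028 to 0.18 and the Pramel51 group from -0.15 to 0.53. Array weights turned Pramel25 to -0.051, Pramel27 to 0.046, the Pramel4 group to -0.10 and the Pramel51 group to -0.35. Without both samples numbered 2 these were -0.034 for Pramel25, -0.13 for the Pramel4 group and -0.34 for the Pramel51 group, and a second quantile normalisation gave -0.024 for Pramel25. The cause of these turns was not tested. The planned count of relatives found by protein similarity was not run.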
